A study of Rattus norvegicus with 9 samples.

Results

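Egr1, Egr2, Egr3, Nr4a1, Nr4a2, Nr4a3, Ier2, Ier3, Dusp1 and Zfp36 are immediate early genes, and their transcripts were followed in 9 rat femur libraries. The 10 genes were chosen by symbol, because Egr1 was already known to be low in the treated femora of this series; each symbol has 1 row among the 32623 rows of the deposited table. The treated group (n = 3) is labelled with the herb Desertliving Cistanche, a desert plant of traditional Chinese medicine, and the series title places it in ovariectomized rats. The ovariectomized group (n = 3) comes from rats without ovaries, a surgical model of oestrogen loss after the menopause. The control group (n = 3) is labelled SD rat, the usual short form of Sprague-Dawley. All 9 libraries are labelled WT for genotype and femur for tissue; the sources used here do not state dose, duration, age or how much marrow and muscle the bones kept. Nor do the labels say that each library came from its own rat, so a p-value measures the spread of these libraries, which may be technical.

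Immediate early genes are transcribed within minutes of a stimulus, without new protein synthesis. Growth factors, mechanical load and cellular stress act on them through MAP kinase cascades, which activate serum response factor (SRF, bound at the CArG box) with its ETS partners, and CREB (bound at the cAMP response element, CRE). Many of the transcripts are unstable. The Egr proteins are zinc finger transcription factors, the Nr4a proteins are orphan nuclear receptors that bind DNA without a known classical hormone ligand, and Dusp1 and Zfp36 restrain the response, the first by dephosphorylating p38 and JNK and the second by marking AU-rich transcripts for decay. In bone, Egr and Nr4a genes are known to be induced by parathyroid hormone in osteoblasts.

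RefSeq promoters in the GRCr8 build, from 250 bases before to 50 bases after the start site, were found for 7 of the 10 members. They are shown for the Egr pair that shares a CArG box next to a CRE part, for Nr4a1, which with Egr1 was lower in every treated library than in every ovariectomized one, and for Dusp1 and Ier2, which hold the full CRE. Capitals mark CArG boxes and the CRE part TGACG on either strand. The windows are chr18:26736828-26737127 (plus strand), chr20:21054392-21054691 (minus), chr7:134259888-134260187 (plus), chr10:17184603-17184902 (plus) and chr19:40399123-40399422 (plus).
Egr1: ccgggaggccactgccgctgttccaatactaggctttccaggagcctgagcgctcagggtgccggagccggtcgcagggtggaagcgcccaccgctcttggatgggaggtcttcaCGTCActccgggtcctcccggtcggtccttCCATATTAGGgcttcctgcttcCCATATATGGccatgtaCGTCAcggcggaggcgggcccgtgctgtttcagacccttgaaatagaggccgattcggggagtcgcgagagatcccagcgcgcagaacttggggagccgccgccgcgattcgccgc
Egr2: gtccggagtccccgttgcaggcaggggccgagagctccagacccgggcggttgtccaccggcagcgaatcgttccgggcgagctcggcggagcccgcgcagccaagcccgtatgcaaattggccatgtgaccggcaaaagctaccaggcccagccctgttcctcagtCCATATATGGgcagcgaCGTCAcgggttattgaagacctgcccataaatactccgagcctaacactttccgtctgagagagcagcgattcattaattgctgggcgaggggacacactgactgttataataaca
Nr4a1: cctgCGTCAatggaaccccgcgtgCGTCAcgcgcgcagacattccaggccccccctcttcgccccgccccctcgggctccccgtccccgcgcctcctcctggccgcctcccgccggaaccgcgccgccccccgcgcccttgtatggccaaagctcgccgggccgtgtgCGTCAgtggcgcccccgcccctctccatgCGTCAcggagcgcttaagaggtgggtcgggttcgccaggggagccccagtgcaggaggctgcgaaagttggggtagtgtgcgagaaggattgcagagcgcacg
Dusp1: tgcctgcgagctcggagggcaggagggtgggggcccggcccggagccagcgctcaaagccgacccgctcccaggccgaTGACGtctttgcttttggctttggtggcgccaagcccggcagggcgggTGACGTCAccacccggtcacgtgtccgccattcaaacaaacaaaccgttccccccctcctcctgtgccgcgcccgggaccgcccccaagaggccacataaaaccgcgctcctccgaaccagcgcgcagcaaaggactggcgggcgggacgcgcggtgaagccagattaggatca
Ier2: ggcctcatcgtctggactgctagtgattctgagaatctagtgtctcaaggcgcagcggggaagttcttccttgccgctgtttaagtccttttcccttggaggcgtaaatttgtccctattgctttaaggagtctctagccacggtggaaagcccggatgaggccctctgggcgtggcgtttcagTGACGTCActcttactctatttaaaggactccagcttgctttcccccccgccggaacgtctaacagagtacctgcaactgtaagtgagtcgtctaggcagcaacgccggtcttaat

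Positions below are those of a match's leftmost base, counted as negative before the start site. Egr1 held 2 CArG boxes, at -105 and -83, and 2 CRE parts, at -135 and -66. Egr2 held 1 CArG box and 1 CRE part, also at -83 and -66. Nr4a1 held 4 CRE parts and no CArG box. The CArG box was in 3 of 7 member promoters (Egr1, Egr2 and Zfp36), against 1.64% of all 33469 promoters in the table, and only 7 promoters of the table (0.0209%) had 2 or more. The CRE part TGACG was in 6 of 7, against 21.2%, and the full CRE TGACGTCA, which contains the part, in 2 of 7 (Dusp1 and Ier2), against 1.83%. The EGR motif GCGGGGGCG was in Nr4a1 and Zfp36, against 2.73% of all promoters. The EGR form GCGTGGGCG, the Nr4a motif AAAGGTCA, the AP-1 motif TGANTCA and TATAAA were in 0 of 7, against 0.544%, 1.43%, 7.33% and 14.2%. Both strands were searched. These are matches of letters, not measured binding.

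**Figure D1:**
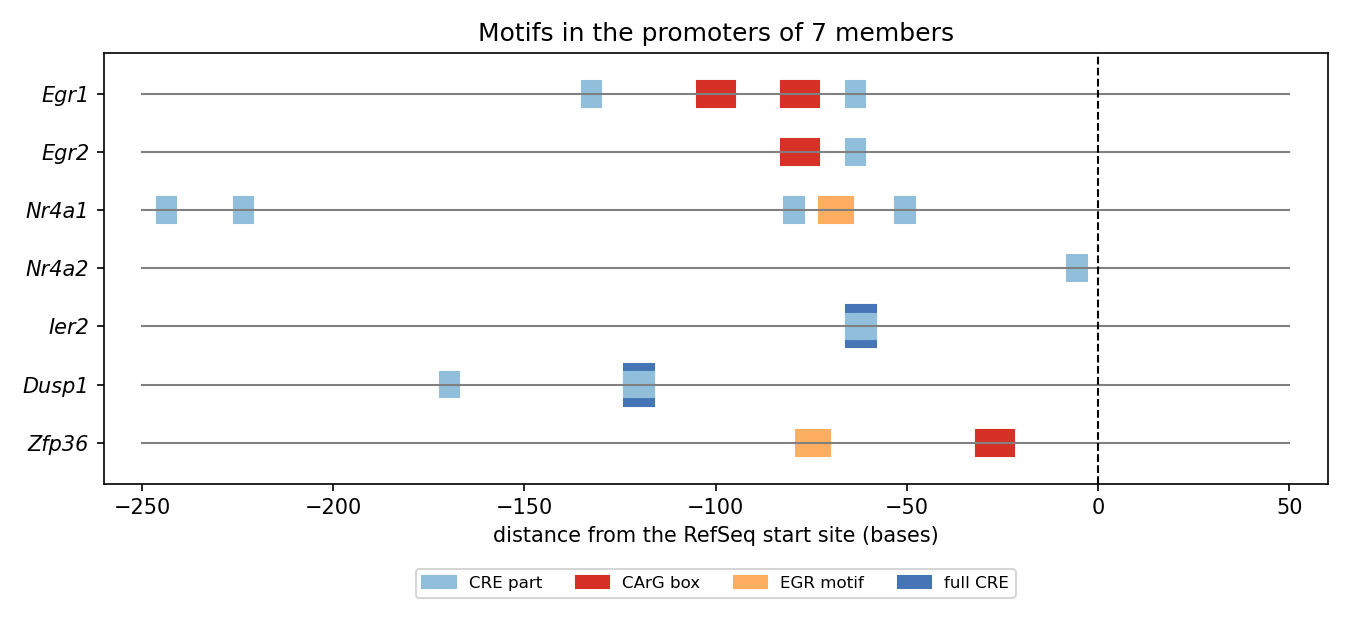
Motif matches in the 7 member promoters, by distance in bases from the RefSeq start site (dashed line); red boxes are CArG boxes, light blue boxes CRE parts, the taller dark blue boxes full CREs and orange boxes the EGR motif. Egr1 and Egr2 both have a CArG box at -83 and a CRE part at -66.

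Most of the 10 genes are short, though not all. Their median span in the deposited table was 3894.5 bases, against 16645 bases for the 13886 rows tested. Ier3 was the shortest (1205 bases), and Nr4a1 (14459 bases) and Nr4a3 (39837 bases) were the longest. The table's own annotation gave RNA polymerase II activator activity to the 6 Egr and Nr4a genes, a term held by 1.43% of rows, and fat cell differentiation to Egr2, Nr4a1, Nr4a2 and Nr4a3, a term held by 0.233% of rows. The same annotation lists Ier2 as a pseudogene, whereas RefSeq lists it as protein-coding.

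The libraries held 54992823 to 66531156 counts. A test needed a mean level of 1 FPKM or more, which 7 of the 10 members reached; Egr2, Nr4a2 and Nr4a3 did not. Levels are given as CPM (counts scaled by library size and TMM factors) between libraries, and as FPKM, which also accounts for length, between genes. All 8 osteoblast markers and 7 of 8 erythroid markers of fixed lists had a row, and none of the 12 marker lists held a gene at 0 in all 9 libraries. Bone, marrow and skeletal muscle transcripts were all present. All 8 muscle markers had a row and summed to 884 to 1814 CPM in treated, 1265 to 5344 CPM in ovariectomized and 380 to 1114 CPM in control libraries. In such bulk tissue, fewer cells of a type and less RNA per cell cannot be told apart.

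By FPKM the restraining genes were the most abundant members. Dusp1 averaged 95.7 ± 27.3 FPKM and Zfp36 83.3 ± 13.8 FPKM (SD over the 9 libraries), and these neighbours overlapped. Ier2, a small nuclear regulator, followed at 42.7 ± 4.62 FPKM, and Egr1 at 28.1 ± 8.12 FPKM, with no overlap between them. Nr4a1 at 7.31 ± 1.63 FPKM and Ier3, a stress-induced regulator of cell survival, at 6.50 ± 1.20 FPKM overlapped, and Egr3 lay below both at 3.10 ± 0.633 FPKM. Nr4a2 at 0.834 ± 0.270 FPKM and Egr2 at 0.695 ± 0.189 FPKM overlapped. Nr4a3 was the lowest member, at 0.102 ± 0.0677 FPKM. Within the Egr and Nr4a families, Egr1 and Nr4a1 were thus the most abundant per length, and no other family member's range met theirs.

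**Figure D2:**
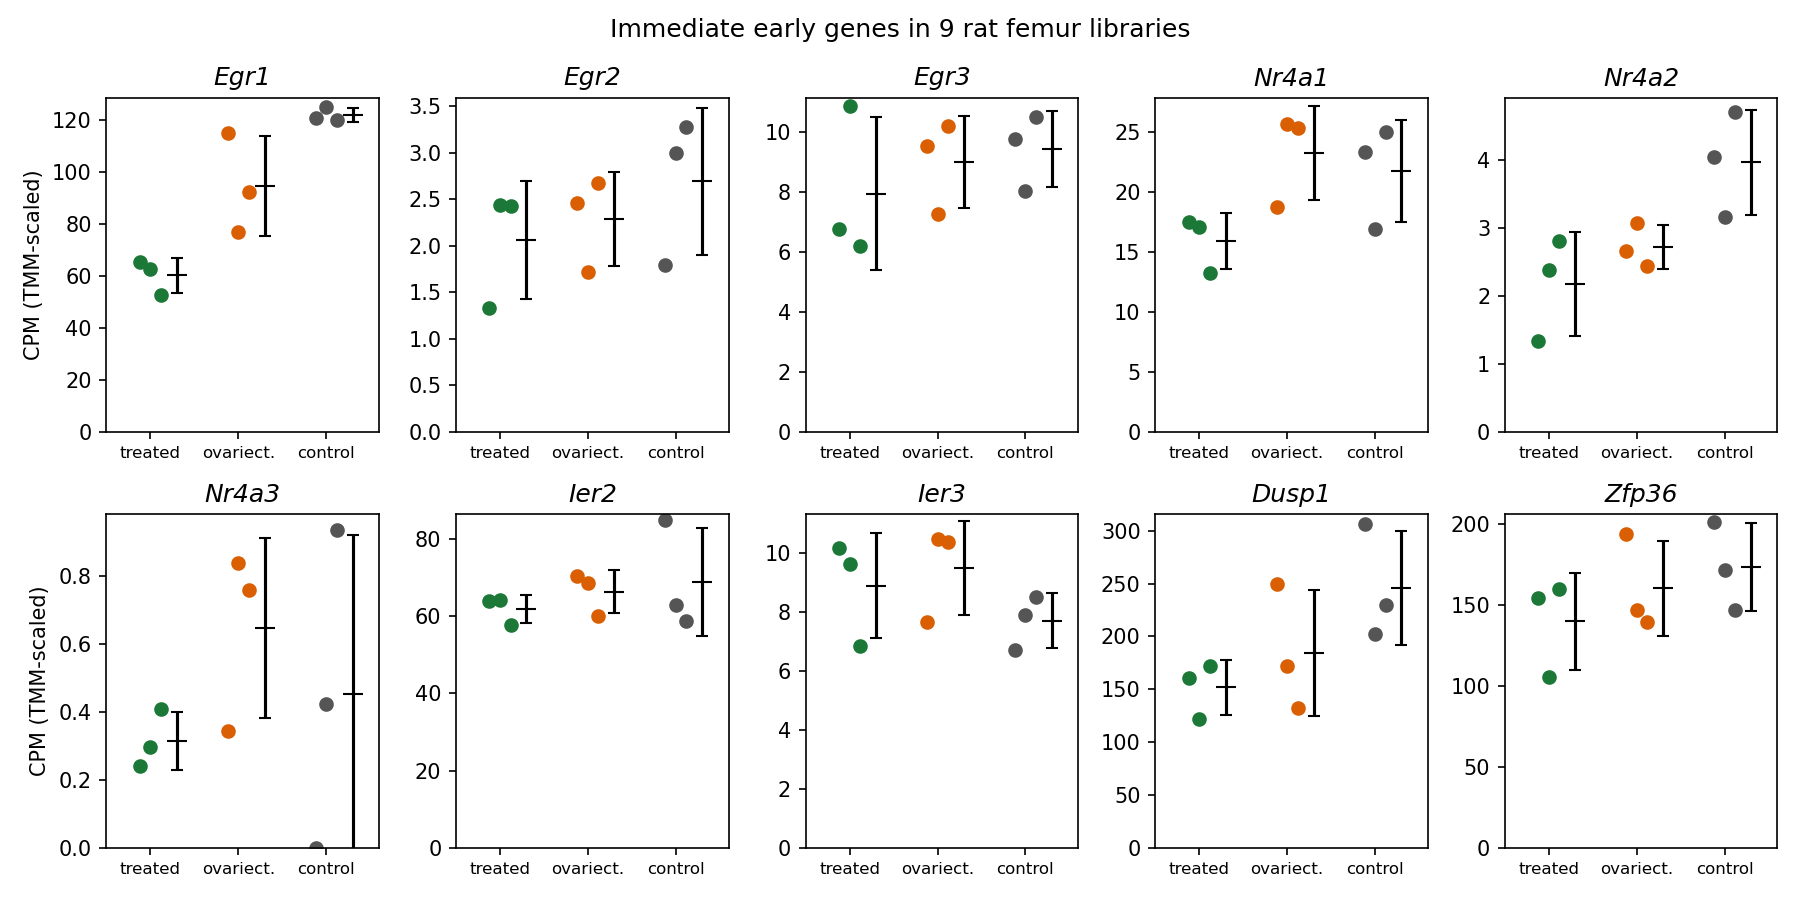
Level of each member in each library, as TMM-scaled CPM on axes that start at 0; coloured points are the 3 treated, 3 ovariectomized and 3 control libraries, and the black line with bars is the group mean with its SD. The Egr1 groups do not overlap, whereas the Ier2 and Ier3 groups do.

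Egr1 (chromosome 18, 27657628 to 27661429 in the table's coordinates, for which the sources used here name no build) activates growth and matrix genes after a stimulus. It had 65.4, 62.6 and 52.5 CPM in treated, 115, 76.8 and 92.2 CPM in ovariectomized and 120.7, 124.8 and 120.1 CPM in control libraries. No group overlapped another: every treated library lay below every ovariectomized one, and these below every control. The controls differed from each other by little (121.8 ± 2.58 CPM, SD, n = 3), and the ovariectomized libraries by more (94.7 ± 19.3 CPM). Treated libraries, at 60.2 ± 6.79 CPM, held 63.6% of the ovariectomized and 49.4% of the control mean. EdgeR estimated log2 fold changes of -0.65 ± 0.14 (SE, treated over ovariectomized) and -1.02 ± 0.14 (treated over control). Both are descriptions with no test, because low Egr1 in treated femora is what chose the genes.

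The comparison that the choice did not use is that of ovariectomized with control rats. The control label, SD rat, does not say whether these rats had a sham operation. Loss of the ovaries and the surgery itself may thus not be told apart. This comparison shares its ovariectomized and its control libraries with the treated comparisons. Here Egr1 had a log2 fold change of -0.36 ± 0.14, with an adjusted p of 0.945 in edgeR's quasi-likelihood test. The adjusted p was 0.537 in DESeq2 and ran from 0.421 upwards over the alternatives. It thus did not pass, although no ovariectomized library reached the lowest control. Without ovariectomized replicate 1 the estimate was -0.53, and without ovariectomized replicate 2 it was -0.24.

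Summed markers of some other cells also differed between groups without overlap, though for none of them in every comparison. Treated and ovariectomized libraries overlapped for erythroid, adipocyte, chondrocyte and muscle markers. Osteoblast markers overlapped in every comparison, as did those of neutrophils, B and T lymphocytes, endothelial cells and osteoclasts. The 7 erythroid markers with a row summed to 51517 to 64849 CPM in treated, 62117 to 75595 CPM in ovariectomized and 78998 to 140856 CPM in control libraries, with 0 of 7 at 0 throughout. All 7 had estimates below 0 in each comparison, with medians of -0.25 (ovariectomized over control), -0.31 (treated over ovariectomized) and -0.61 (treated over control). The 6 fibroblast and periosteum markers, Dcn and Postn among them, summed to 549 to 609 CPM in treated, 764 to 1046 CPM in ovariectomized and 757 to 1115 CPM in control libraries. For treated over ovariectomized rats all 6 estimates were below 0 and their median was -0.77 (log2); for ovariectomized over control rats 3 of 6 were below 0. The 8 adipocyte markers summed to 1072 to 1911 CPM in treated, 1147 to 1626 CPM in ovariectomized and 270.4 to 853 CPM in control libraries. The 8 osteoblast markers summed to 2536 to 6721 CPM in treated, 2927 to 8412 CPM in ovariectomized and 5135 to 9057 CPM in control libraries. For ovariectomized over control rats 8 of 8 had estimates below 0 (median -0.38), and for treated over control 8 of 8 (median -0.58). For treated over ovariectomized rats it was 7 of 8 (median -0.07). The 6 chondrocyte markers summed to 177 to 562 CPM in treated, 302 to 349 CPM in ovariectomized and 393 to 1263 CPM in control libraries. Of the 4 that were tested, 3 had estimates below 0 for ovariectomized over control rats (median -1.41), 1 for treated over ovariectomized (median 0.18) and 4 for treated over control (median -1.02). All 8 muscle markers had estimates below 0 for treated over ovariectomized rats (median -1.04) and above 0 for ovariectomized over control rats (median 1.64). The part of these cells in the Egr1 levels was not tested.

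For the other Egr genes the group means had the order of Egr1, but the libraries overlapped. Egr3, which in mice is needed for muscle spindles, had 6.75, 10.8 and 6.19 CPM in treated, 9.53, 7.26 and 10.2 CPM in ovariectomized and 9.76, 8.02 and 10.5 CPM in control libraries. Treated replicate 2 was the highest of all 9 libraries and treated replicates 1 and 3 the lowest, so the groups overlapped. Without treated replicate 2, the estimate for treated against ovariectomized rats was -0.47, against -0.18 ± 0.24 (SE) with it; it was -0.08 without treated replicate 1 and -0.03 without treated replicate 3. Egr2, known for its role in Schwann cells and in the restraint of T cells, was counted 77 to 156 times per treated library, 94 to 173 times per ovariectomized library and 108 to 221 times per control library. Its means were 2.07 ± 0.636 CPM in treated, 2.29 ± 0.505 CPM in ovariectomized and 2.69 ± 0.79 CPM in control libraries (SD, n = 3), and the groups overlapped in each comparison. It lay under the filter; without the filter its estimate was -0.24 ± 0.33 (SE) for ovariectomized against control rats, with an edgeR adjusted p of 1, and -0.14 ± 0.33 for treated against ovariectomized rats.

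Nr4a1 (chromosome 7, 142905758 to 142920216), which in mice is required for patrolling monocytes, had 17.5, 17.0 and 13.2 CPM in treated, 18.8, 25.7 and 25.3 CPM in ovariectomized and 23.4, 16.9 and 25.0 CPM in control libraries. Every treated library lay below every ovariectomized one, while control replicate 2 lay among the treated libraries. The log2 fold change was -0.55 ± 0.19 (SE) for treated against ovariectomized and -0.45 ± 0.19 for treated against control rats. Nr4a1 averaged 23.2 ± 3.89 CPM in ovariectomized and 21.7 ± 4.27 CPM in control libraries (SD, n = 3), and the estimate of 0.10 ± 0.19 (SE) did not pass (edgeR adjusted p = 0.9998). The 8 monocyte and macrophage markers summed to 8962 to 11657 CPM in treated, 9524 to 12986 CPM in ovariectomized and 7492 to 14282 CPM in control libraries. These ranges overlapped.

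Nr4a2, known for its role in dopamine neurons and as an early target of parathyroid hormone in osteoblasts, had 77, 152 and 178 counts in treated, 169, 168 and 157 in ovariectomized and 243, 186 and 316 in control libraries. In CPM this was 1.33 to 2.81 in treated, 2.43 to 3.07 in ovariectomized and 3.16 to 4.69 in control libraries, and both of the first groups lay below every control. Its mean in treated rats was 54.8% of the control mean. Without the filter on low values its log2 fold change was -0.55 ± 0.29 (SE) for ovariectomized against control rats, with an edgeR adjusted p of 0.920. Nr4a3 had 14, 19 and 26 counts in treated, 22, 46 and 49 in ovariectomized and 0, 25 and 63 in control libraries. At this depth its groups overlapped and no difference was detectable.

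Dusp1 (chromosome 10, 16970626 to 16973418), the phosphatase that ends p38 and JNK signalling, had 160.5, 122 and 172 CPM in treated, 249, 172 and 132 CPM in ovariectomized and 306, 202 and 229.7 CPM in control libraries. All treated libraries lay below all controls, and the ovariectomized ones spanned both. The log2 fold change was -0.28 ± 0.25 (SE) for treated against ovariectomized and -0.70 ± 0.25 for treated against control rats. The first rested on 1 library: without ovariectomized replicate 1 it was -0.0046, and without ovariectomized replicate 3 -0.47. For ovariectomized against control rats it was -0.41 ± 0.25 and did not pass (edgeR adjusted p = 0.9998), and 3 omissions moved it by much: to -0.69 (ovariectomized replicate 1 left out), to -0.22 (ovariectomized replicate 3) and to -0.23 (control replicate 1).

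Zfp36, the decay factor also called tristetraprolin, had 154, 105 and 159.7 CPM in treated, 194, 147 and 139.7 CPM in ovariectomized and 201, 171 and 147 CPM in control libraries. The groups overlapped in every comparison, with treated replicate 2 the lowest library. The log2 fold change was -0.20 ± 0.20 (SE) for treated against ovariectomized rats, and -0.03 without treated replicate 2. It was -0.11 ± 0.19 for ovariectomized against control rats (edgeR adjusted p = 0.9998). Zfp36 and Dusp1 varied together over the 9 libraries, with a Pearson r of 0.86 for log2 CPM, the highest of any pair of members (Spearman rho 0.87), and of 0.85 for deviations from the group means. Ovariectomized replicate 1 and control replicate 1 were each the highest of their group for both genes. These coefficients describe libraries that share their depth scaling and tissue make-up.

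For both Ier genes the groups overlapped in every comparison. Ier2 had 63.7, 64.0 and 57.7 CPM in treated, 70.4, 68.5 and 59.9 CPM in ovariectomized and 84.8, 62.8 and 58.8 CPM in control libraries. Control replicate 1 was the highest, and the other 8 values lay between 57.7 and 70.4 CPM. The estimates were -0.10 ± 0.14 (SE) for treated against ovariectomized, -0.15 ± 0.14 for treated against control and -0.05 ± 0.14 for ovariectomized against control rats (edgeR adjusted p = 0.9998 for the last); without control replicate 1 they were -0.09, 0.03 and 0.12. Ier3 had 10.2, 9.63 and 6.84 CPM in treated, 7.66, 10.5 and 10.4 CPM in ovariectomized and 6.69, 7.89 and 8.51 CPM in control libraries. It alone among the 7 tested members had a higher estimate in treated than in control rats, at 0.21 ± 0.20; the value was 0.10 without treated replicate 1, 0.12 without control replicate 1 and 0.36 without treated replicate 3. For ovariectomized against control rats it was 0.30 ± 0.20 (edgeR adjusted p = 0.9998), which did not pass, and the groups overlapped.

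**Figure D3:**
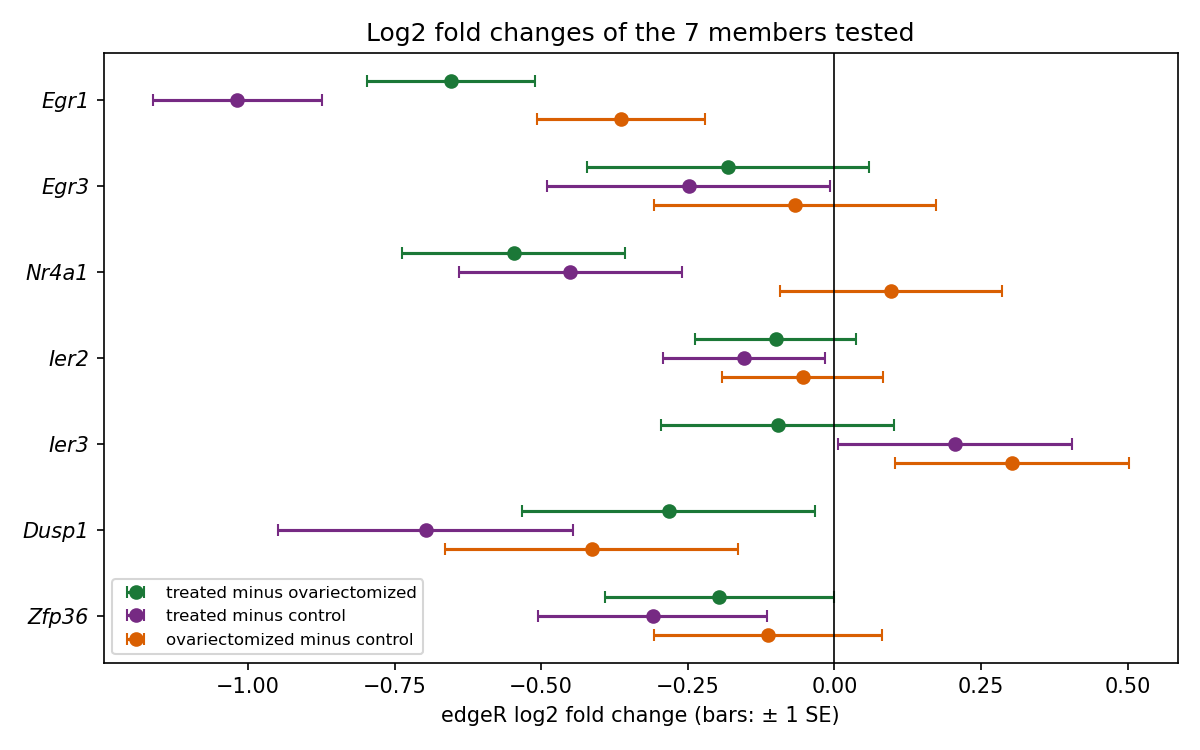
edgeR log2 fold changes of the 7 tested members in the 3 comparisons, with bars of 1 SE. Egr1, whose low level in treated femora chose the genes, has the lowest estimates in both treated comparisons (-0.65 over ovariectomized, -1.02 over control). Those of Ier2 lie between -0.15 and -0.05.

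Counted over the members, ovariectomized against control rats gave 5 estimates below 0 and 2 above; their median was -0.07 (log2), against 51.3% below 0 and a median of -0.0037 over all 13886 genes tested. EdgeR called 0 of 7 members at an adjusted p under 0.05, as it called 0% of all genes, and limma called 0% as well. At an unadjusted p under 0.05 it was 1 of 7 (Egr1), against 5.05% of all genes, and DESeq2 called 0 of 7, against 0.435%. Egr1 was also the one tested member whose libraries did not overlap on the lower side, against 3.92% of all genes; on the higher side it was 0 of 7, against 5.02%.

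For treated against ovariectomized rats all 7 tested members had lower estimates (51.0% of all genes), from -0.65 to -0.10 with a median of -0.20 (all genes -0.0042). In all 10 the treated mean was the lower one in CPM. The libraries did not overlap for 2 of 7, Egr1 and Nr4a1, against 6.63% of all genes on the lower side; it was 0 of 7 on the higher side, against 5.75%. EdgeR called 0 of 7 (0% of all genes; 2 of 7 at an unadjusted p under 0.05, against 5.20%), limma called 0% of all genes, and DESeq2 called 1, Egr1 (0.253% of all genes). For treated against control rats 6 of 7 were lower (50.0% of all genes), with a median of -0.31 (all genes -6e-06), 2 of 7 lower without overlap, Egr1 and Dusp1 (6.78%), 0 of 7 higher without overlap (6.34%), and edgeR called 0 of 7 (0%; 3 of 7 at an unadjusted p under 0.05, against 8.81%). DESeq2 again called Egr1 alone (1.11% of all genes), and limma called 0%. Nothing is read from these counts in the treated comparisons, which chose the genes and share the treated libraries.

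**Figure D4:**
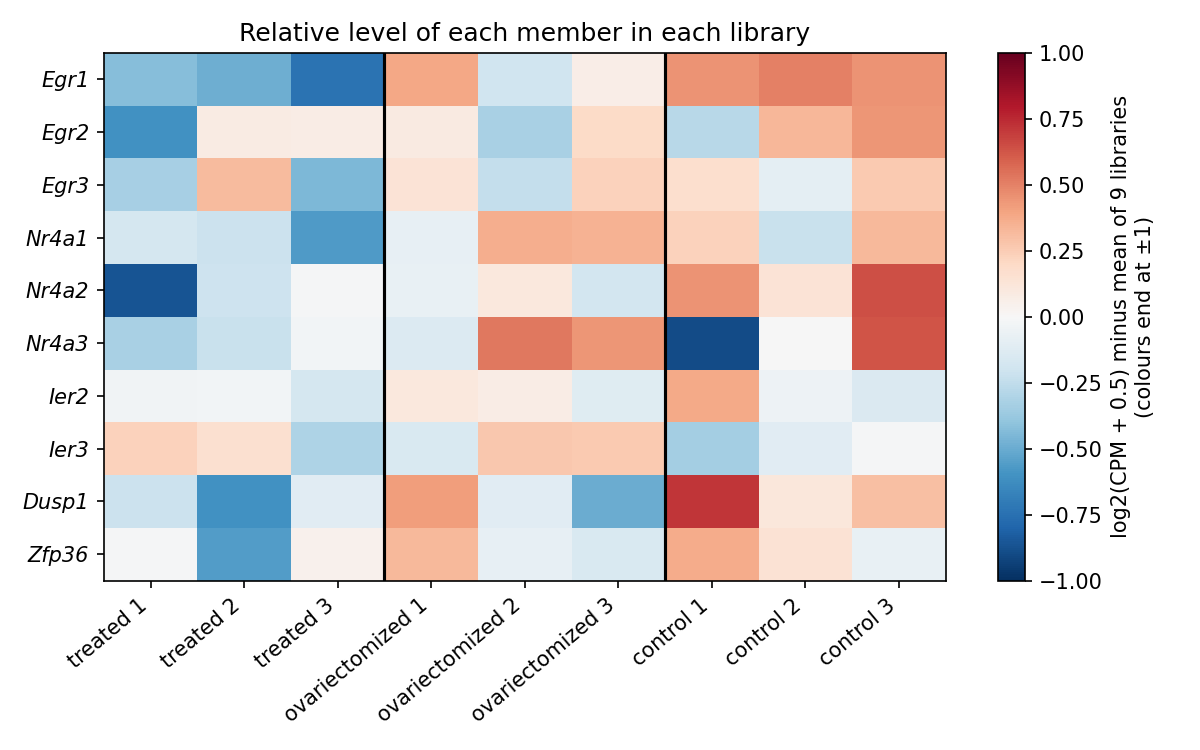
Log2(CPM + 0.5) of each member in each library minus its mean over the 9 libraries (blue lower, red higher; 3 treated, 3 ovariectomized and 3 control libraries from left to right). The treated libraries have 7 to 9 of 10 members below the mean, against 4 or 5 in ovariectomized and 3 to 5 in control libraries. These counts are a description, because low Egr1 in treated femora chose the genes.

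Library by library, 9, 7 and 8 of the 10 members lay below their 9-library mean in treated replicates 1, 2 and 3, against 4, 5 and 4 in the ovariectomized and 3, 5 and 3 in the control libraries. Nothing is read from these counts, because low Egr1 in treated femora chose the genes. The share of all genes below their mean is not given. The members did not share 1 low library. Treated replicate 1 was the lowest of the 9 for Egr2 and Nr4a2, treated replicate 2 for Dusp1 and Zfp36, and treated replicate 3 for Egr1, Egr3, Nr4a1 and Ier2. Control replicate 1 was the highest for Ier2, Dusp1 and Zfp36 but the lowest for Ier3 and Nr4a3. Over the 9 libraries the Pearson r of Egr1 with the other members ran from -0.28 for Ier3 to 0.70 for Dusp1, with a median of 0.52 (Spearman rho -0.28 and 0.67 for these 2 genes). For deviations from the group means the median was 0.09, from -0.51 for Nr4a2 to 0.44 for Egr3.

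The genes most like Egr1 over the 9 libraries were sought among the 11727 tested genes that are no member and have no placeholder symbol, by the highest Pearson r of log2 CPM, as a description. They were Il1r1, the interleukin-1 receptor (r = 0.95, Spearman rho = 0.85), the chemokine gene Cxcl1 (0.94 and 0.85), Fos, the AP-1 subunit (0.94 and 0.85), Dclre1b, a DNA repair nuclease (0.93 and 0.87), Nudc, a dynein regulator (0.93 and 0.93), Creb3, a membrane-bound transcription factor (0.93 and 0.88), Atxn2l, an RNA-binding protein (0.93 and 0.95) and Ccn1, a secreted matrix protein (0.92 and 0.82). Il1r1 had 8.18 to 9.25 CPM in treated, 12.1 to 16.8 CPM in ovariectomized and 15.6 to 19.3 CPM in control libraries. A high r does not give the size of a difference. Atxn2l had 336 to 344 CPM in treated, 351 to 353 CPM in ovariectomized and 366 to 369 CPM in control libraries. Nudc had 96.0 to 104 CPM in treated, 102 to 107 CPM in ovariectomized and 112 to 116 CPM in control libraries. For deviations from the group means all 8 had a lower r, which picking them by the highest r itself favours. It was 0.80 for Nudc, 0.76 for Ccn1, 0.75 for Fos, 0.74 for Cxcl1, 0.60 for Dclre1b, 0.58 for Creb3, 0.58 for Il1r1 and 0.35 for Atxn2l.

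Other genes of the pathway were taken from 7 lists chosen with earlier results of these data known, and are given for treated against ovariectomized rats. Among 14 tested of 18 further immediate early transcription factors, 10 were lower and 4 higher (median log2 fold change -0.20), against 51.0% lower over all genes. EdgeR called 0 of them and DESeq2 called 3, all lower (Fos, Fosb and Atf3), against 0.253% of all genes; these 2 shares are also the background of the lists that follow. Atf3, a stress-induced repressor, had 2.07 ± 0.713 CPM in treated and 5.83 ± 1.02 CPM in ovariectomized libraries (SD, n = 3), and its edgeR estimate was -1.50 ± 0.28 (log2, SE). For ovariectomized over control rats it was at 0.93 ± 0.28, against -0.36 ± 0.14 for Egr1, with 5.83 ± 1.02 CPM in ovariectomized and 3.06 ± 0.493 CPM in control libraries; neither passed (edgeR adjusted p = 0.892 for Atf3), and the difference between the genes was not tested. Fosb was at -1.38 ± 0.25 and Fos at -0.94 ± 0.15 for treated over ovariectomized rats. Jun, the AP-1 partner of Fos, was at -0.69 ± 0.19. The list of further regulators and secreted factors had 25 symbols, older names of listed genes among them. Of these, 22 had a row and 21 were tested. Among the 21 tested, 18 were lower (median -0.23), with 0 called by edgeR and 1, Ppp1r15a, by DESeq2. Ppp1r15a, which directs dephosphorylation of a translation factor after stress, had 82.4 ± 8.41 CPM in treated and 119.8 ± 6.04 CPM in ovariectomized libraries (log2 fold change -0.54 ± 0.09 SE). Ccn2 (-0.64 ± 0.20), Hbegf (-0.63 ± 0.28) and Ccn1 (-0.59 ± 0.22) were the other 3 with the smallest p.

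The genes upstream of the members, the relatives of Dusp1 and the protein partners of the Egr and Nr4a factors were mixed in direction. The list of kinases and promoter factors had 21 symbols, older names of listed genes among them, and 18 had a row and were tested. Of these 18, 6 were lower and 12 higher, with a median of 0.08 and 0 called by edgeR or DESeq2. Mapk9, which encodes a JNK kinase, was at 0.38 ± 0.11 (SE), Rps6ka3, which encodes a ribosomal S6 kinase, at 0.16 ± 0.12 and the repressor Crem at -0.36 ± 0.27. All 10 other dual specificity phosphatases were tested, with 6 lower, 4 higher, a median of -0.03 and 0 called; Dusp2 (0.19 ± 0.16), Dusp14 (-0.21 ± 0.21), Dusp4 (0.20 ± 0.22) and Dusp8 (0.15 ± 0.28) came first by p. Of the 5 Egr corepressors and Nr4a partners, 3 were lower with a median of -0.12 and 0 called. They were Nab2 (-0.27 ± 0.21) and Nab1 (-0.12 ± 0.15), which bind Egr proteins, and the retinoid receptor Rxrb (-0.25 ± 0.16), with its relative Rxrg on the higher side (0.12 ± 0.48).

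Transcripts that Zfp36 is known to destabilize had estimates on both sides of 0. With other regulators of mRNA stability they made a list of 14 genes, of which 10 were tested. Of these 10, 7 were lower and 3 higher, with a median of -0.04 and 0 called by edgeR or DESeq2. These counts and the median cover both kinds of gene. Cxcl1 was at -1.07 ± 0.33 (SE), with 1.12 ± 0.316 CPM in treated and 2.35 ± 0.9998 CPM in ovariectomized libraries (SD, n = 3). Cxcl2 (-0.88 ± 0.60) and Vegfa (-0.31 ± 0.21) were also lower, and Il1b was at 0.40 ± 0.27. Glucocorticoids also induce Dusp1 and Zfp36. Of 9 other genes that respond to them, all tested and some also among the further regulators above, 8 had estimates below 0. The median of the 9 was -0.26, with 0 called by edgeR and 1, Zbtb16, by DESeq2. A part of glucocorticoids in the member levels was not tested. Zbtb16 was at -1.43 ± 0.36, Klf9 at -0.78 ± 0.24, Tsc22d3 at -0.63 ± 0.31 and Fkbp5 at -0.18 ± 0.06. Over all tested genes the median was -0.0042. For ovariectomized against control rats edgeR and DESeq2 called 0 members of all 7 lists, against 0% and 0.435% of all genes.

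**Figure D5:**
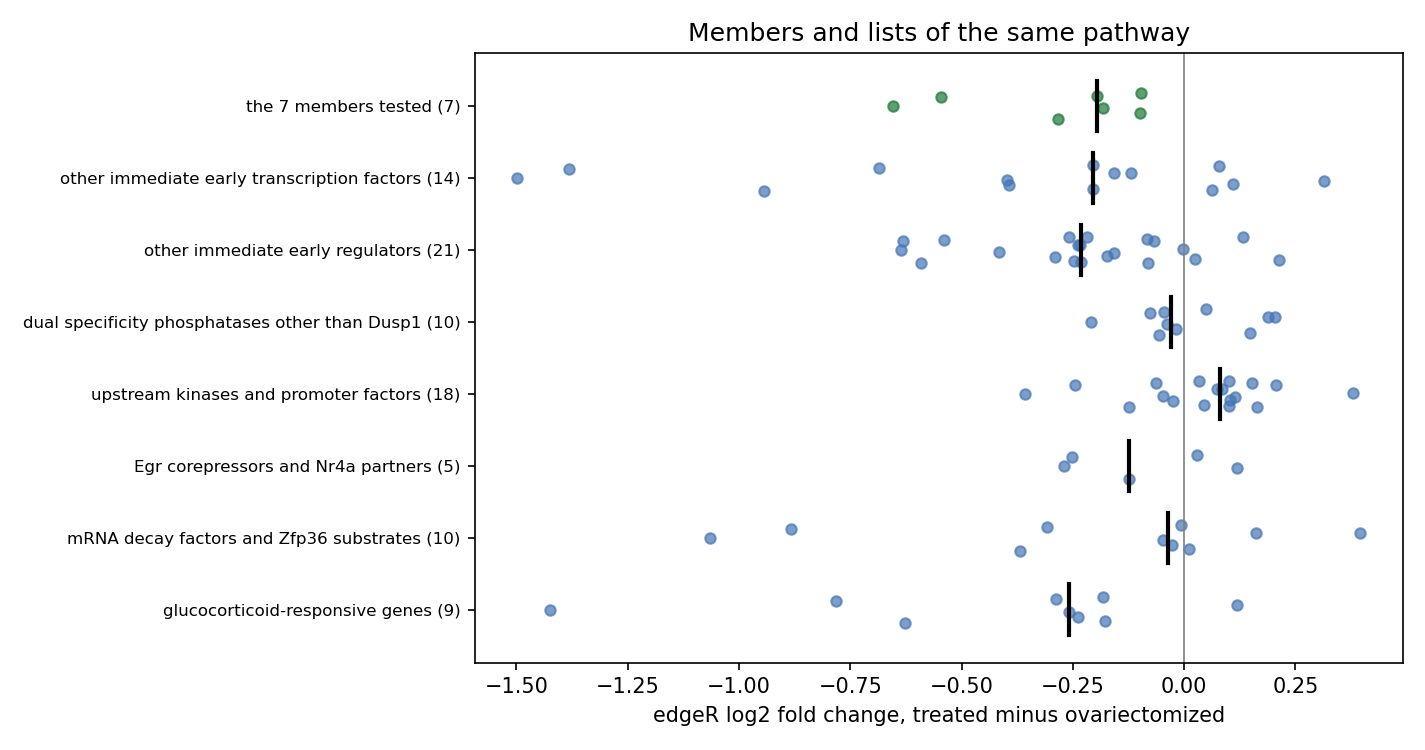
edgeR log2 fold changes for treated against ovariectomized rats, 1 point per tested gene, with a black line at each median and the number of genes in brackets; the vertical spread within a row has no meaning. The members and the further immediate early genes have medians from -0.23 to -0.20, and the upstream kinases and promoter factors 0.08.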

How the data were processed

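The authors deposited 1 table with whole-number counts per gene and FPKM values for 9 femur libraries, per the file headers. Per the submitters' processing notes fastp, HISAT2 and StringTie were used; the sources used here name no versions, no genome build and no counting step. A gene with a deposited count of 0 carries an FPKM of 0.0001. The counts were used as deposited: edgeR 4.0.16 (R 4.3.3) with TMM scaling, quasi-likelihood tests from 1 fit to the 9 libraries, a filter at a mean of 1 FPKM (13886 rows tested) and Benjamini-Hochberg adjustment over all of them, with a threshold of 0.05. Standard errors are the log2 fold change divided by the root of F. DESeq2 1.42.0, limma 3.58.1 on log2(FPKM + 1) or log2(FPKM + 0.1), a filter at 5 FPKM or none, only the 2 groups compared, a replicate block and each library left out were alternatives. The step was tested on simulated data. The floor given for a count of 0 covers counting error only, whereas the standard errors also include the spread between libraries. Members, lists and motifs were chosen with earlier results of these data known. Named genes were the members, the 4 genes of each list with the smallest p in treated against ovariectomized rats and the 8 genes most like Egr1; 1 gene that this rule names is not reported here. No 2 libraries agreed within sampling noise (lowest chi-square per degree of freedom 79.5). Promoters came from RefSeq (GRCr8), read with Python 3.11.15; figures used matplotlib 3.10.9.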

Additional observations from a re-analysis of the deposited data

How the results depend on the processing

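EdgeR called 0 genes in each comparison; DESeq2 called 59 for ovariectomized against control, 35 for treated against ovariectomized and 153 for treated against control rats, and edgeR on only the 2 groups compared called 2, 1 and 1. With each library left out in turn the counts ran from 0 to 4, 0 to 2 and 0 to 3, and the member medians from -0.16 to 0.0040, -0.31 to -0.14 and -0.50 to -0.22. Some estimates for ovariectomized against control rats, none of which had passed, changed sign. Ier2 was at 0.0055 and 0.0059 in limma with a pseudocount of 1 and 0.1, and from -0.16 to 0.12 with a library left out. Under the same omissions Zfp36 ran from -0.28 to 0.0040, Nr4a1 from -0.064 to 0.23 and Egr3 from -0.18 to 0.060. In the treated comparisons Ier3 was at 0.06 against ovariectomized rats without treated replicate 3. Ier2 was at 0.03 against control rats without control replicate 1. The median r of Egr1 with the other members was 0.0886 for deviations from the group means, against 0.524. The causes were not tested. Egr3 lay under the filter at 5 FPKM and has no value there. Depth limits Nr4a3, with at most 63 counts per library.

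Libraries with the same number share only that number: their deviations correlated at -0.13 to 0.24, against -0.24 to 0.14 for other numbers. With the replicate number as a block, edgeR called 0 genes in each comparison and the member medians were -0.07, -0.19 and -0.31.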

Other observations

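Nr4a3 was counted 0 times in control replicate 1, which allows up to 0.0499 CPM (3 counts, counting error only), whereas the other 8 libraries held 14 to 63 counts, or 0.242 to 0.936 CPM. Such lone zeros were seen in every library: between 5 (ovariectomized replicate 1) and 20 (control replicate 1) rows of the table were at 0 in 1 library with at least 14 counts in each of the other 8.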
